A study of Mus musculus with 47 samples.

Results

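The p53 pathway genes described here are 10 genes of the deposited count table, taken by symbol out of the 24062 gene symbols it holds: Trp53 (which encodes p53), Mdm2, Cdkn1a, Ccng1, Phlda3, Bax, Bbc3, Fas, Trp53inp1 and Sesn2. They were followed in all 17 groups of a mouse RNA-seq study of intestinal tumorigenesis, 47 libraries in all, and all 10 passed the filter on low counts in the tissue fit, the organoid fit and the joint fit. The study comprised 8 organoid and 39 tissue libraries. The organoids, cultured intestinal epithelium labelled as Apc Min, came from C5 and B6 mice and either received 5-aza-cytidine (AZA), a nucleoside that is built into nucleic acids and traps DNA methyltransferases, or served as controls (2 libraries per group). The dose and duration of AZA and the tissue the cultures were started from are not given in the sources used here. The tissues were adenomas and uninvolved mucosa of mice carrying the Min allele of Apc (adenoma and Min mucosa), and mucosa of Apc wild-type mice, with 3 libraries per group from mice of 15 to 19 weeks. The same age range is given for the organoid samples. The Min allele truncates a tumour suppressor of the Wnt pathway in every cell of the animal, so Min mucosa carries it as the adenomas do. Adenoma, Min mucosa and wild-type mucosa were sampled in 4 backgrounds: B6xPWD, the F1 of C57BL/6 and PWD; C5F1, the F1 of C57BL/6 and C5; C5, a consomic strain with PWD chromosome 5 on C57BL/6; and C57BL/6 itself (B6). PWD contributed wild-type mucosa only.

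p53 is a transcription factor that is held at a low level by the ubiquitin ligase Mdm2 and accumulates after DNA damage, oncogene activity or nucleotide stress, largely by protein stabilisation rather than by a higher Trp53 transcript level. It then raises transcription of genes that stop the cell cycle (Cdkn1a), lower growth signalling (Phlda3, Sesn2), promote apoptosis (Bax, Bbc3, Fas), act on p53 itself (Mdm2, Ccng1, Trp53inp1) or do several of these. In the intestine the pathway is best known for the response of crypt cells to irradiation, and Cdkn1a is also expressed, independently of p53, in epithelial cells that leave the cell cycle to differentiate.

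p53 binds a 20-base element made of a pair of 10-base half-sites. The 250 bases before the annotated start were searched on both strands in the RefSeq promoter table (GRCm38.p6, the build called mm10), which held 12 windows for 9 of the 10 genes; Trp53inp1 is not in it. The exact consensus half-site, 10 bases long, occurred in a window of 5 of the 9 genes, Trp53, Mdm2, Cdkn1a, Ccng1 and Bax, against 8.2% of the 27025 genes searched. Counted by window, it occurred in 5 of the 12, against 7.13% of all 32851 promoters. The 20-base element with at most 1 mismatch occurred in Cdkn1a and Ccng1, and in 25 promoters overall (0.0761%). These windows are shown because they alone of the 12 hold the 20-base element, and because both genes rose with AZA while they lay on opposite sides of tissue in untreated culture. The capitals mark the 20-base element, whose first base lies 51 bases before the upstream annotated start in Cdkn1a and 195 bases before the start in Ccng1. The window of a further annotated Cdkn1a start, chr17:29093519-29093768, held no half-site and came no closer to the 20-base element than 5 mismatches.
Cdkn1a, chr17:29090729-29090978, plus strand: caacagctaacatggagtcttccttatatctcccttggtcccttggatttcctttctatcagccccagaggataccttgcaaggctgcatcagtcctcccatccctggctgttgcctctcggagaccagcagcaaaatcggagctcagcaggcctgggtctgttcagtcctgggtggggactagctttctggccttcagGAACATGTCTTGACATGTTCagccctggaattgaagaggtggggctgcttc
Ccng1, chr11:40755287-40755536, minus strand: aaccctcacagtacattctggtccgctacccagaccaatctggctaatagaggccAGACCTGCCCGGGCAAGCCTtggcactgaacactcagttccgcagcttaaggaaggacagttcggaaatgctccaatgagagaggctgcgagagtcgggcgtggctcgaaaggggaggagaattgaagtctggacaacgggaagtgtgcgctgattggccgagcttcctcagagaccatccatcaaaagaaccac
Both elements depart from the consensus at 1 base. A match of letters is a description and does not show binding in these cells, and a window without these letters says nothing of p53 binding elsewhere in the gene.

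By GENCODE M21 (mm10) the genes lie at chr11:69580359-69591873 (Trp53, plus strand), chr10:117688875-117710758 (Mdm2, minus), chr17:29090976-29100727 (Cdkn1a, plus), chr11:40748552-40755311 (Ccng1, minus), chr1:135766119-135769136 (Phlda3, plus), chr7:45461697-45466898 (Bax, minus), chr7:16308393-16318205 (Bbc3, plus), chr19:34290666-34327772 (Fas, plus), chr4:11156431-11174379 (Trp53inp1, plus) and chr4:132492032-132510501 (Sesn2, minus). None lies on chromosome 5, the chromosome exchanged in C5. The annotation places 273 exon bases of Cdkn1a under AC167363.2 on the other strand and 192 exon bases of Bax under Gm45808 on the same strand. It also lists a processed pseudogene of Trp53. The strand setting of the counting is not given, and an overlap on the same strand is ambiguous under any setting. Reads of these stretches therefore cannot be assigned with certainty.

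Reads assigned to genes ranged from 4389898 to 8373764 per organoid library and from 2726505 to 20070696 per tissue library. The ribosomal precursor Rn45s took 0.760 to 1.61% of them in organoids and 16.4 to 72.7% in tissue, so the depth left for other genes was uneven in tissue. It exceeded 60% in 2 libraries, C5F1 Min mucosa replicate 1 and B6 wild-type mucosa replicate 3, in which Bbc3 had 1 count each. Min is a point mutation that read counts do not reveal, and Apc itself was at 129 to 182 CPM (read counts scaled to a common library size of 1000000) in organoids and 108 to 205 CPM in tissue. Epithelial markers (Epcam, Cdh1, Krt8, Krt18, Krt19, Vil1) summed to 2943 to 4035 CPM in organoids and 4923 to 9405 CPM in tissue. Summed markers of fibroblasts reached at most 3.40 CPM in organoids and those of T cells at most 1.59 CPM, so the cultures carried little RNA of either. Nothing in the labels says that replicates came from separate mice or cultures, and the tests then weigh differences against the spread between libraries, which may be technical.

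Levels below are CPM normalised by TMM over the 47 libraries. Per kilobase of exon, the highest member in tissue was Cdkn1a with a mean of 37.8 CPM per kb, ahead of Ccng1 (15.6 CPM per kb), Trp53 (10.3 CPM per kb), Bax (9.59 CPM per kb) and Trp53inp1 (8.92 CPM per kb). Mdm2 averaged 5.52 CPM per kb, and Phlda3 (3.75), Fas (2.92), Sesn2 (1.77) and Bbc3 (0.910 CPM per kb) were lower. In control organoids the order was different at the top: Ccng1 stood at 59.5 CPM per kb, Bax at 8.97 and Cdkn1a at 8.94 CPM per kb.

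**Figure D1:**
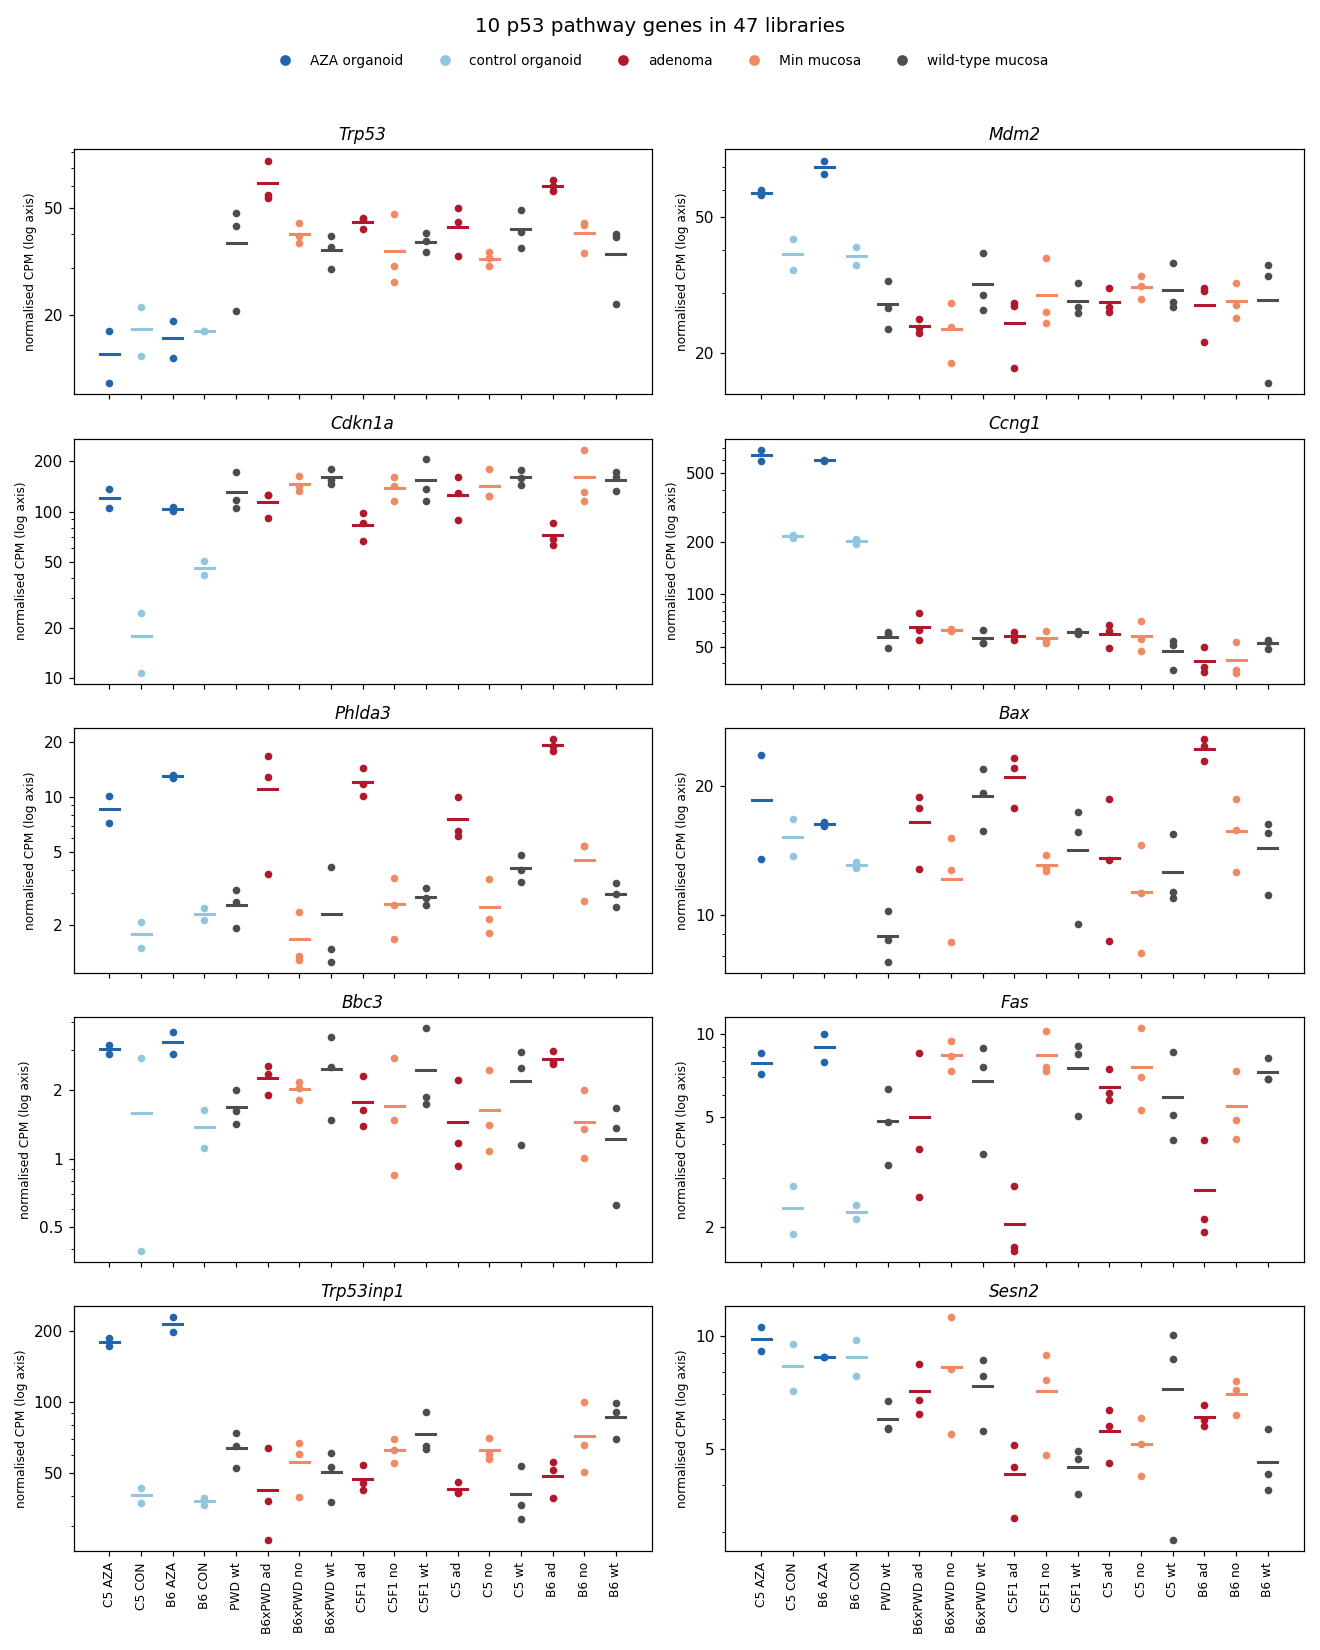
Normalised CPM (log axis) of each of the 10 genes in every library; points are libraries, short lines are group means, and colours mark AZA organoids, control organoids (CON), adenoma (ad), Min mucosa (no) and wild-type mucosa (wt). Ccng1 lies at 196 CPM or more in all organoids and at 78.3 CPM or less in all tissue, and the group means of Phlda3 are highest in adenomas and AZA organoids.

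Across the 17 group means, Ccng1 had the widest range, 15.4-fold between C5 AZA organoids and B6 adenoma. Phlda3 followed with 11.4-fold between B6 adenoma and B6xPWD Min mucosa, and Cdkn1a with 9.09-fold between B6xPWD wild-type mucosa and C5 control organoids. Sesn2 had the narrowest range, 2.29-fold. When the groups were ordered by mean, most of the 16 pairs of neighbours overlapped in their libraries. The exceptions were 4 pairs each for Ccng1 and Phlda3, 3 for Cdkn1a, 2 each for Trp53, Mdm2 and Trp53inp1, and 1 for Sesn2, while no neighbours of Bax, Bbc3 or Fas were apart. Breaks of this kind were not counted for other genes, so the counts are not shown to be particular to the p53 pathway genes. For Ccng1 the breaks separated AZA organoids, C5 control organoids, B6 control organoids and all tissue, with 1 more break inside the tissues. For Phlda3 they set B6 adenoma on top and the 4 adenoma and 2 AZA groups above every other group mean.

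The first question was how the genes responded to AZA in culture. Trp53inp1, Phlda3, Cdkn1a, Fas, Ccng1 and Mdm2 rose, by 1.69-fold for Mdm2 to 5.33-fold for Phlda3, and none fell. In the mean of the C5 and B6 cultures, edgeR's quasi-likelihood test called 6 of the 10 genes at a Benjamini-Hochberg adjusted p under 0.05, all of them higher in AZA organoids; 28.5% of the 13395 genes tested were called (15.0% of those tested higher, 13.5% lower). The median log2 change of the 10 genes was 1.36, against 0.04 over all genes tested. The same 6 genes were called within C5 cultures, where 14.6% of all genes were, and within B6 cultures, where 16.1% were. With only 2 libraries per group these counts were fragile in B6, where 3 genes were called without control replicate 1, with Cdkn1a, Mdm2 and Fas lost.

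Trp53 itself did not pass the test. It stood at 17.5 and 11.2 CPM in C5 AZA organoids and 19.0 and 14.0 CPM in B6 AZA organoids, against 14.2 and 21.4 CPM in C5 controls and 17.4 and 17.5 CPM in B6 controls. The groups overlapped, and the log2 change was -0.17 ± 0.23 (SE; 95% confidence interval -0.66 to 0.33, adjusted p = 0.633). Mdm2, the ligase that marks p53 for degradation and is itself a p53 target, was at 59.8 and 58.0 CPM in C5 AZA organoids and 73.2 and 66.9 CPM in B6 AZA organoids, against 35.1 and 43.0 CPM in C5 controls and 36.2 and 40.7 CPM in B6 controls. Each AZA library exceeded each control, by 0.76 ± 0.14 on the log2 scale (adjusted p = 0.000684). Within C5 alone the Mdm2 call (adjusted p = 0.0373) was lost in 7 of 10 alternative analyses, each of the 4 that left out a C5 library among them.

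Cdkn1a, which encodes the cyclin-dependent kinase inhibitor p21, was at 136 and 104 CPM in C5 AZA organoids and 101 and 106 CPM in B6 AZA organoids, against 24.7 and 10.7 CPM in C5 controls and 41.4 and 50.3 CPM in B6 controls. All 4 AZA libraries lay above all 4 controls and close to one another, whereas the C5 controls lay below the B6 controls. The change was 2.01 ± 0.20 (log2; adjusted p = 3.8e-06). Ccng1, whose product cyclin G1 recruits a phosphatase to Mdm2, was at 683 and 585 CPM in C5 AZA organoids and 598 and 590.1 CPM in B6 AZA organoids, against 222 and 210.4 CPM in C5 controls and 196 and 208 CPM in B6 controls. The groups were wide apart and tight within, and the change of 1.59 ± 0.10 had the smallest SE of the 10 genes (log2; adjusted p = 7.01e-08). Phlda3, an inhibitor of Akt that competes for membrane lipids, was at 10.1 and 7.19 CPM in C5 AZA organoids and 13.2 and 12.7 CPM in B6 AZA organoids, against 2.08 and 1.51 CPM in C5 controls and 2.14 and 2.48 CPM in B6 controls. Even its lowest AZA library exceeded its highest control, and the change was 2.41 ± 0.33 (log2; adjusted p = 9.05e-05).

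The apoptosis genes were split. Fas, the death receptor for Fas ligand, was at 8.56 and 7.19 CPM in C5 AZA organoids and 9.96 and 7.91 CPM in B6 AZA organoids, against 1.88 and 2.82 CPM in C5 controls and 2.14 and 2.40 CPM in B6 controls. The groups were well apart (log2 change 1.88 ± 0.36, adjusted p = 0.00127), although the control libraries held 19 to 43 reads of the gene. The Fas call within C5 (adjusted p = 0.0312) was lost in 5 of 10 alternatives, and that within B6 (adjusted p = 0.0167) without AZA replicate 1 or either control library. Bax, the pore-forming effector at mitochondria, ranged from 13.5 to 23.6 CPM in AZA organoids and from 12.8 to 16.7 CPM in controls, which overlapped (0.34 ± 0.23, adjusted p = 0.307). Bbc3, which encodes the BH3-only protein Puma, ranged from 2.89 to 3.61 CPM in AZA organoids, above the 0.393 to 2.77 CPM of controls, but on 6 to 38 reads per library. Its change of 1.13 ± 0.69 (log2; 95% confidence interval -0.34 to 2.60) was not called (adjusted p = 0.246), and a change of the size seen in Fas was within the interval.

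Trp53inp1, which promotes p53 phosphorylation and autophagy, had the lowest adjusted p of the 10 genes. It was at 172 and 186 CPM in C5 AZA organoids and 197 and 228 CPM in B6 AZA organoids, against 43.6 and 37.3 CPM in C5 controls and 39.2 and 37.0 CPM in B6 controls. The controls lay close together and every AZA library was several times higher (log2 change 2.35 ± 0.12, adjusted p = 9.28e-09). Sesn2, a leucine sensor that restrains mTORC1 and responds to p53 and to amino acid and redox stress, ranged from 8.76 to 10.6 CPM in AZA organoids and from 7.13 to 9.71 CPM in controls, and did not pass the test (0.15 ± 0.27, adjusted p = 0.719).

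**Figure D2:**
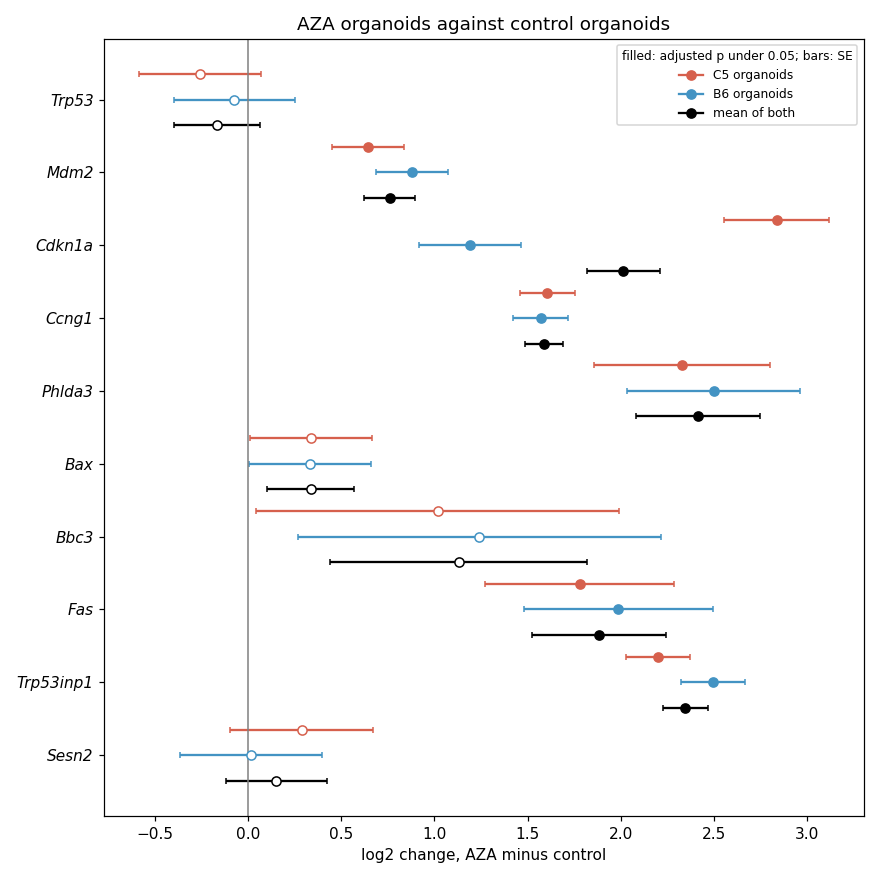
Log2 change, AZA organoids minus control organoids, for C5, B6 and their mean; bars are SE and filled points have an adjusted p under 0.05. The same 6 genes are filled in both backgrounds, and Cdkn1a is the gene whose C5 point (2.84) lies farthest from its B6 point (1.19).

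Whether the AZA response differed between C5 and B6 was tested as an interaction. edgeR called no gene of any kind (0%), the members included, and DESeq2 called 0 members. An unadjusted p under 0.05 in edgeR was found for 1 member, Cdkn1a, and for 609 of the 13395 genes tested. The Cdkn1a response was 2.84 ± 0.28 in C5 and 1.19 ± 0.27 in B6, a difference of 1.65 ± 0.39 (log2; adjusted p = 0.999). That difference was called when the low-count filter was dropped (adjusted p = 0.00019) and without C5 control replicate 3 (0.000439). It was also called with the replicate number as a block (0.000645), although the labels do not state that these numbers pair samples. The AZA means of Cdkn1a were 120.3 CPM in C5 and 104 CPM in B6, and the control means were 17.7 CPM in C5 and 45.8 CPM in B6. The direct test of C5 against B6 controls gave a Cdkn1a change of -1.40 ± 0.28 (adjusted p = 0.0879). It called 0 members in edgeR, where 0.209% of all genes were called, and 1 in DESeq2 (Cdkn1a). In edgeR 1 member and 767 of the 13395 genes tested had an unadjusted p under 0.05. For the other 9 genes this difference between C5 and B6 controls lay between -0.39 and 0.21.

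Cell type markers moved together with the AZA response. All 8 markers of proliferating cells fell (summed level 644 to 918 CPM in AZA organoids and 1622 to 2055 CPM in controls). All 8 enterocyte markers rose (11881 to 18370 CPM in AZA organoids, 2339 to 5323 CPM in controls), as did 5 of 5 Paneth cell markers (2038 to 3969 CPM, against 533 to 816 CPM in controls) and 5 of 5 goblet cell markers. None of these groups overlapped in summed level. Their part in the changes of the p53 pathway genes was not tested, and in such bulk samples a shift in the share of cells of a type and a change of RNA per cell cannot be told apart.

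A wider list of 50 p53 regulators and targets placed the 10 genes in context. Of its 45 tested members, 14 rose and 7 fell with AZA, with a median log2 change of 0.24 against 0.04 for all genes; of all genes tested, 15.0% rose and 13.5% fell. The 7 that fell are near that share. The targets for arrest (4 of 9 rose, none fell) and apoptosis (5 of 11 rose, none fell) went up or did not pass the test. Of 8 metabolism and stress targets 4 rose and 1 fell, and of 6 DNA repair targets 1 rose and 1 fell. Among the regulators of p53 5 of 11 fell and none rose. The risen genes with the largest changes were Aldh4a1 (3.68 ± 0.53), a proline catabolism enzyme, and Eda2r (2.15 ± 0.21), a cell surface receptor. Plk2 (1.89 ± 0.22), a Polo-like kinase, and Psrc1 (1.59 ± 0.28), a spindle protein, came next. The largest decreases were those of the DNA damage checkpoint kinases Chek1 (-1.65 ± 0.40), Chek2 (-1.07 ± 0.19) and Atr (-0.88 ± 0.16), followed by the mTORC1 inhibitor Ddit4 (-0.82 ± 0.20).

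In tumours the 10 genes changed in different directions. In the mean of 4 backgrounds Phlda3, Bax and Trp53 were higher in adenoma than in Min mucosa, Fas, Cdkn1a and Trp53inp1 were lower, and Mdm2, Ccng1, Bbc3 and Sesn2 did not pass the test. These 6 of 10 calls stand beside 45.2% of all 13657 genes tested (23.7% higher, 21.5% lower), so the number called was near the background. The median log2 change of the 10 genes was -0.05, against 0.01 for all genes. The 6 calls held in each of the 31 alternative analyses of that mean.

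Phlda3 had the largest change. It was at 3.81, 12.8 and 16.7 CPM in B6xPWD adenomas, against 1.37, 2.38 and 1.30 CPM in B6xPWD Min mucosa. In C5F1 it was at 10.2, 14.3 and 11.7 CPM in adenomas, against 1.69, 2.59 and 3.62 CPM in Min mucosa. Each adenoma lay above each Min mucosa of its own background, and B6xPWD adenoma replicate 1 was the lowest of the 12 adenomas. In C5 the values were 9.97, 6.14 and 6.56 CPM in adenomas, against 3.57, 2.17 and 1.82 CPM in Min mucosa. In B6 they were 20.7, 17.7 and 18.9 CPM in adenomas, against 5.45, 5.42 and 2.71 CPM in Min mucosa. B6 was thus highest in both tissues. The change was 2.11 ± 0.20 (log2, 4.31-fold; adjusted p = 1.98e-10), and Phlda3 was the 1 member called in each background separately, where 16.4% (B6xPWD), 20.5% (C5F1), 2.77% (C5) and 26.7% (B6) of all genes were called. In C5 the call rested on few libraries, since it was lost without adenoma replicate 1 or without Min mucosa replicate 2 or 3 (adjusted p from 0.0844 to 0.146). Of the 10 genes, 1 was called in B6xPWD and C5 each and 3 in C5F1 and B6 each; the count was 3 in B6xPWD without adenoma replicate 1 and 5 in B6 without Min mucosa replicate 1. With the replicate number as a block it was 6 in C5F1 and 2 in C5, backgrounds in which same-numbered adenoma and Min mucosa deviated together in all 3 pairs. The shares of all genes called in these alternatives are not given here, so the higher counts are not a result about the 10 genes.

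Cdkn1a went the other way. It was at 91.8, 126 and 125 CPM in B6xPWD adenomas, against 142, 133 and 164 CPM in B6xPWD Min mucosa. In C5F1 it was at 98.3, 85.8 and 66.3 CPM in adenomas, against 160.4, 142 and 115 CPM in Min mucosa. In both the adenomas lay below the mucosa without overlap. C5 adenomas, at 161, 88.7 and 129 CPM, overlapped C5 Min mucosa at 181, 124 and 123 CPM. B6 adenomas had the lowest values, at 85.3, 63.2 and 67.9 CPM, against 235, 131 and 115 CPM in B6 Min mucosa, where replicate 1 was the highest library of all. The mean change was -0.61 ± 0.12 (adjusted p = 0.000154), and the call was made in B6 (-1.16 ± 0.25, adjusted p = 0.000795) and C5F1 (-0.75 ± 0.25, adjusted p = 0.032) and not in B6xPWD (-0.36 ± 0.25) or C5 (-0.18 ± 0.25). The C5F1 call was lost without adenoma replicate 2 or 3 or Min mucosa replicate 1 or 2 (adjusted p from 0.0719 to 0.138).

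Fas fell as well. It was at 8.57, 2.57 and 3.82 CPM in B6xPWD adenomas, against 9.45, 7.34 and 8.31 CPM in B6xPWD Min mucosa. In C5F1 it was at 1.64, 2.81 and 1.70 CPM in adenomas, against 7.60, 10.2 and 7.37 CPM in Min mucosa. The groups were clearly apart in C5F1 and overlapped in B6xPWD through adenoma replicate 1. In C5 the adenomas, at 7.48, 5.76 and 6.09 CPM, overlapped the Min mucosa at 10.5, 5.29 and 7.01 CPM. In B6 the adenomas were at 1.91, 2.13 and 4.12 CPM, against 4.88, 4.18 and 7.37 CPM in Min mucosa, with a narrow gap. The mean change was -1.01 ± 0.19 (adjusted p = 5.98e-05). The call within C5F1 (-1.98 ± 0.41, adjusted p = 0.000511) held in every alternative run, whereas that within B6 (-1.11 ± 0.39, adjusted p = 0.0342) was lost without adenoma replicate 1 or 2 or Min mucosa replicate 3 (adjusted p from 0.103 to 0.231).

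The remaining calls were small. Trp53 ranged from 33.0 to 74.6 CPM (median 52.0) in the 12 adenomas and from 26.5 to 47.3 CPM (median 35.6) in the 12 Min mucosa libraries, a change of 0.49 ± 0.11 (adjusted p = 0.00063). Bax ranged from 8.67 to 25.7 CPM (median 18.7) in adenomas and from 8.13 to 18.6 CPM (median 12.8) in Min mucosa (0.50 ± 0.12, adjusted p = 0.00131). Trp53inp1 ranged from 26.1 to 63.8 CPM (median 44.1) in adenomas and from 39.7 to 99.8 CPM (median 61.5) in Min mucosa (-0.48 ± 0.13, adjusted p = 0.00319). All 3 overlapped between tissues over the 12 libraries of each. In the full fit edgeR called none of them in a single background, although their adjusted p was as low as 0.0505 (Bax in B6). Some alternative edgeR fits did call them. With the replicate number as a block, Trp53 and Bax were called in B6 and C5F1, and Trp53inp1 in C5F1 and C5 (adjusted p from 0.00447 to 0.0386). Within B6, adenomas lay above Min mucosa without overlap for Trp53 (57.6 to 63.1 CPM, against 34.0 to 44.0 CPM) and Bax (22.8 to 25.7 CPM, against 12.6 to 18.6 CPM). DESeq2 called both in B6 (adjusted p = 0.0443 for Trp53 and 0.0498 for Bax) and Trp53 in B6xPWD (adjusted p = 0.0361).

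Ccng1 and Mdm2, both higher with AZA in culture, did not pass the test in adenoma. Ccng1 averaged 55.6 ± 11.7 CPM in adenomas and 54.4 ± 10.6 CPM in Min mucosa (SD, n = 12 each), and the confidence interval of its change ran from -0.16 to 0.20 on the log2 scale. Mdm2 averaged 26.1 ± 3.98 CPM in adenomas and 28.2 ± 5.08 CPM in Min mucosa (interval of the change -0.34 to 0.10). Changes of the size seen with AZA (1.59 for Ccng1 and 0.76 for Mdm2) lie outside these intervals. Sesn2 (-0.25 ± 0.15, adjusted p = 0.171) and Bbc3 (0.22 ± 0.21, adjusted p = 0.402) were not called either, and Bbc3 had 1 to 67 reads per tissue library.

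**Figure D3:**
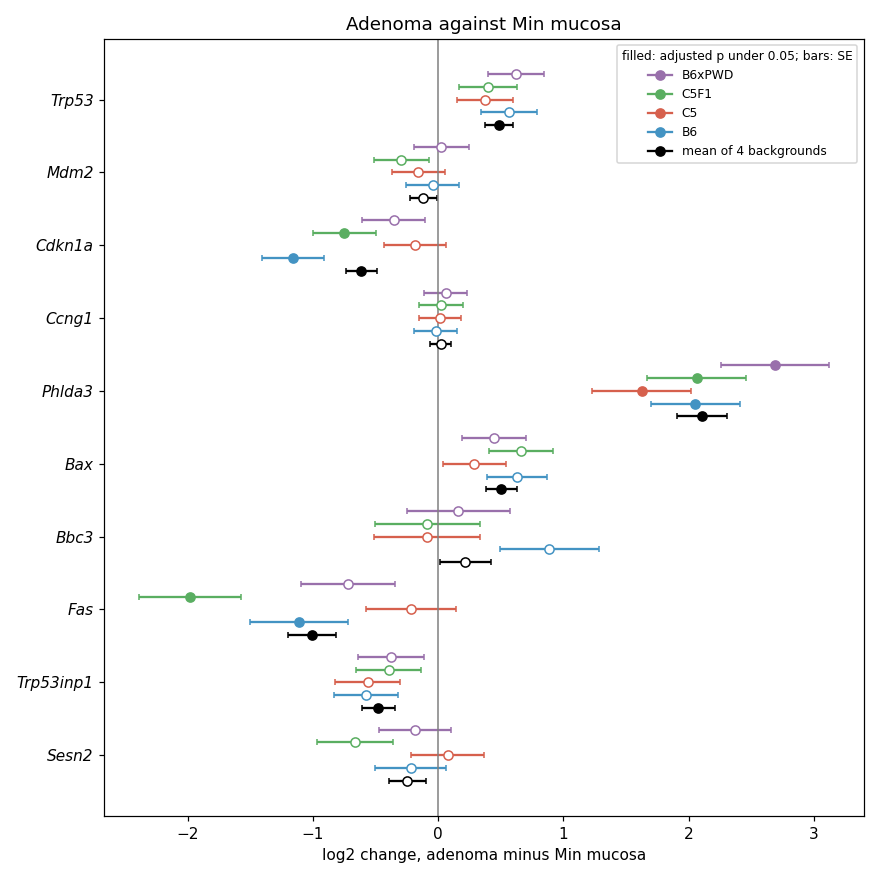
Log2 change, adenoma minus Min mucosa, for B6xPWD, C5F1, C5, B6 and the mean of 4 backgrounds; bars are SE and filled points have an adjusted p under 0.05. Phlda3 is filled in each background at 1.62 to 2.69, Ccng1 lies between -0.02 and 0.06, and Fas spreads widest between backgrounds, from -1.98 in C5F1 to -0.22 in C5.

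The differences of the adenoma effect between backgrounds were tested as interactions, and edgeR called 0 members in each: B6xPWD against B6 (0.630% of all genes called), C5F1 against B6 (0%) and C5 against B6 (0.110%). DESeq2 called 0 members in each. Members with an unadjusted p under 0.05 in edgeR numbered 1, 0 and 1 in that order, beside 1612, 397 and 1276 of the 13657 genes tested. Cdkn1a was that member in both cases, with a decrease smaller by 0.80 ± 0.35 in B6xPWD than in B6 (adjusted p = 0.343) and by 0.97 ± 0.35 in C5 than in B6 (adjusted p = 0.279).

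Cell type markers also differed between adenoma and Min mucosa. Of 8 enterocyte markers 6 fell (summed level 1937 to 10150 CPM in adenomas, median 5473; 7487 to 23050 CPM in Min mucosa, median 12978), and of 8 proliferation markers 6 rose (522 to 726 CPM in adenomas, 361 to 654 CPM in Min mucosa). Of 5 Paneth cell markers 4 fell and 1 rose, and all 5 smooth muscle markers fell (median 474 CPM in adenomas and 1097 CPM in Min mucosa). Of 5 goblet cell markers 4 fell, of 5 stem cell markers 4 rose and 1 fell, and of 5 fibroblast markers 3 rose. Of 6 myeloid markers 4 fell and 1 rose, and of 6 T cell markers 2 fell (5.19 to 61.7 CPM in adenomas, 10.9 to 57.2 CPM in Min mucosa). Within B6xPWD the immune markers went the other way, with 2 of 6 T cell markers and 4 of 5 B and plasma cell markers higher in adenoma and none lower. Their part in the changes of Cdkn1a, Fas, Phlda3 and the others was not tested. Here too, a shift in the share of cells and a change of RNA per cell cannot be told apart.

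Of 46 tested genes of the wider list, 16 rose and 8 fell in adenoma, with a median log2 change of 0.16 against 0.01 for all genes. The share called is near that of all genes tested, of which 23.7% rose and 21.5% fell. The largest increases were those of Gls2 (2.31 ± 0.31), a glutaminase, Plk2 (2.10 ± 0.17), Ddit4 (1.24 ± 0.14) and Pidd1 (1.02 ± 0.25), a caspase-activating scaffold. The largest decreases were those of Sesn1 (-1.30 ± 0.13), a relative of Sesn2, Aldh4a1 (-1.19 ± 0.22), Gadd45a (-0.92 ± 0.13), a growth arrest gene, and Pmaip1 (-0.72 ± 0.16), which encodes the BH3-only protein Noxa. Plk2 rose, like Phlda3, both with AZA and in adenoma, while Ddit4 and Aldh4a1 went in opposite directions in these comparisons, which share no libraries.

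Between Min mucosa and wild-type mucosa no difference was detected in these genes. In the mean of 4 backgrounds edgeR called 0 of 10 members in Min mucosa against wild-type mucosa (0.00732% of all genes, 1 gene in total), and DESeq2 called 0. An unadjusted p under 0.05 in edgeR was found for 0 members and for 1014 of the 13657 genes tested. Among the 6 members averaging over 10 CPM in mucosa, the widest interval was that of Trp53inp1, -0.20 to 0.33 on the log2 scale. Within single backgrounds 0 members were called in B6xPWD, C5F1, C5 (0% of genes each) and B6 (0.520%), by edgeR and by DESeq2. In each of them 1 member had an unadjusted p under 0.05, beside 488 (B6xPWD), 690 (C5F1), 993 (C5) and 1817 (B6) of the 13657 genes. Cdkn1a averaged 147 ± 34.4 CPM in Min mucosa, against 158 ± 24.9 CPM in wild-type mucosa (SD, n = 12 each). Phlda3 averaged 2.84 ± 1.42 CPM in Min mucosa, against 3.06 ± 1.04 CPM in wild-type mucosa (SD, n = 12 each).

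Strain differences were few in wild-type mucosa, the only mucosa in which strains were compared. In wild-type mucosa edgeR called 0 members for PWD against B6, where 18.7% of all genes were called, 0 for B6xPWD (9.60%), 0 for C5F1 (0.0220%) and 1 for C5 (1.47%). Members with an unadjusted p under 0.05 numbered 1 for PWD, 3 for B6xPWD, 0 for C5F1 and 2 for C5. Of all 13657 genes tested, 4302, 3361, 1565 and 2176 had one, in that order. DESeq2 called 0 for PWD and C5F1 and 1 for B6xPWD. The gene called in C5 was Trp53inp1, at 36.6, 53.6 and 32.2 CPM in C5 wild-type mucosa, against 90.4, 99.6 and 69.6 CPM in B6 wild-type mucosa. The groups did not overlap (-1.05 ± 0.26, adjusted p = 0.0383), and the lowest B6 value was the library with over 60% Rn45s. The call was lost without B6 replicate 1 or 2, without C5 replicate 1 or 3 (adjusted p from 0.0871 to 0.263) and in 2 other of the 13 alternatives. Trp53inp1 was also lower in B6xPWD wild-type mucosa, at 53.4, 60.9 and 37.9 CPM, against the same B6 values; it missed the call (-0.75 ± 0.26, adjusted p = 0.0659) and passed it under DESeq2 and without B6 replicate 3. PWD itself, at 74.0, 65.0 and 52.6 CPM, gave -0.42 ± 0.26 (adjusted p = 0.278). These comparisons share the B6 libraries.

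Among adenomas, C5 differed from B6 in 5 of 10 genes, where 17.8% of all genes were called (9.49% higher, 8.28% lower). Cdkn1a (0.83 ± 0.25, adjusted p = 0.0211), Fas (1.37 ± 0.39, adjusted p = 0.0144) and Ccng1 (0.52 ± 0.17, adjusted p = 0.0326) were higher in C5 adenoma, and Phlda3 (-1.31 ± 0.34, adjusted p = 0.00832) and Bax (-0.81 ± 0.24, adjusted p = 0.0192) were lower. Of these 5 genes, only Ccng1 overlapped between the C5 adenomas (61.3, 66.2 and 48.8 CPM) and the B6 adenomas (49.7, 38.0 and 35.9 CPM). Bax was at 18.6, 13.4 and 8.67 CPM in C5 adenomas, against 25.7, 24.8 and 22.8 CPM in B6 adenomas. In Min mucosa, where C5 was not tested against B6, mean Ccng1 was 57.6 CPM in C5 and 41.6 CPM in B6. Means there were 7.60 and 5.47 CPM for Fas, 2.52 and 4.53 CPM for Phlda3, and 11.3 and 15.7 CPM for Bax. Cdkn1a leaned the other way there, at 143 CPM in C5 and 160 CPM in B6. The test of the adenoma effect between C5 and B6, given above, called 0 members. The count of 5 was sensitive to single libraries: it was 3 without B6 replicate 1, 1 without B6 replicate 2, 3 without B6 replicate 3, 2 without C5 replicate 1, 3 without C5 replicate 2 and 3 without C5 replicate 3. Phlda3 stayed called in each of these. Of cell type markers, 4 of 8 enterocyte markers, 3 of 5 Paneth cell markers and 2 of 6 T cell markers were also higher in C5 than in B6 adenoma and 3 of 8 proliferation markers lower, and their part was not tested.

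In B6xPWD adenoma 1 member was called against B6 (16.9% of all genes), Ccng1, at 62.3, 78.3 and 54.4 CPM in B6xPWD adenomas, against 49.7, 38.0 and 35.9 CPM in B6 adenomas. The groups were apart by a narrow gap (0.68 ± 0.17, adjusted p = 0.00639), and without B6xPWD replicate 2 the gene was no longer called (adjusted p = 0.0635) while Fas was. Without B6 replicate 3 or B6xPWD replicate 1 or 3 the count was 2. Mean Ccng1 in Min mucosa, where this contrast was not tested, was 62.5 CPM in B6xPWD and 41.6 CPM in B6. Of cell type markers, 4 of 8 for enterocytes, 3 of 5 for Paneth cells, 3 of 6 for T cells and 4 of 5 for B and plasma cells were also higher in B6xPWD than in B6 adenoma (19 of 68 higher and 6 lower in all), and their part was not tested. In C5F1 adenoma edgeR called 0 members (0.483% of all genes), and DESeq2 called 0. There 1 member and 2081 of the 13657 genes tested had an unadjusted p under 0.05 in edgeR.

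**Figure D4:**
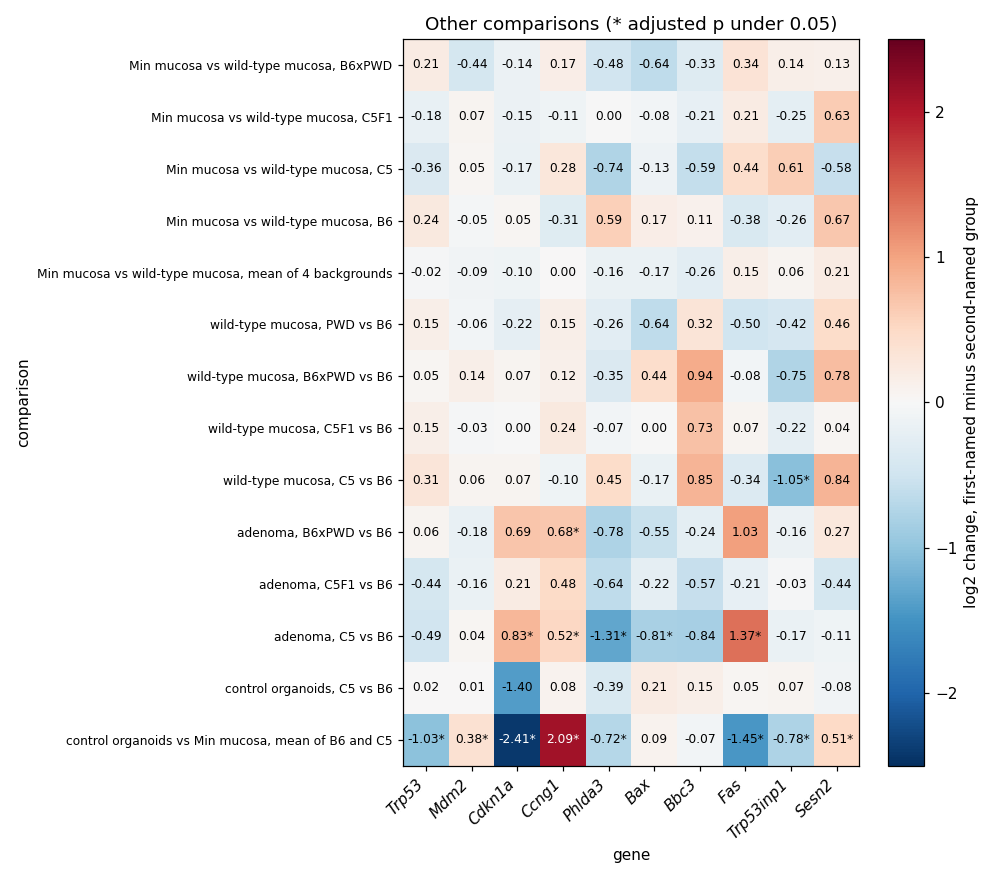
Log2 change of each gene, first-named minus second-named group, for Min against wild-type mucosa, backgrounds against B6, and organoids; asterisks mark an adjusted p under 0.05. No asterisk appears in the 5 rows of Min against wild-type mucosa. In control organoids against Min mucosa 8 of 10 genes carry one, near the 73.8% of all genes tested that were called there.

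Culture and tissue were far apart before any treatment. Control organoids and Min mucosa of the same backgrounds (C5 and B6) differed in 8 of 10 genes, which is near the share of all genes. In that comparison 73.8% of 15202 genes were called (32.8% higher, 41.0% lower), and the median of all genes was -0.18 on the log2 scale. Ccng1 was at 196 to 222 CPM in control organoids, against 35.4 to 70.3 CPM in Min mucosa (2.09 ± 0.13, adjusted p = 8.63e-17). Cdkn1a was at 10.7 to 50.3 CPM in control organoids, against 115 to 235 CPM in Min mucosa (-2.41 ± 0.21, adjusted p = 8.11e-12). Neither gene overlapped, and they lay on opposite sides. A promoter window of each holds the 20-base element shown above, whose part in these differences was not tested.

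Fas (-1.45 ± 0.29, adjusted p = 3.74e-05), Trp53 (-1.03 ± 0.18, adjusted p = 7.85e-06) and Trp53inp1 (-0.78 ± 0.19, adjusted p = 0.000561) were lower in control organoids and did not overlap. Trp53 was at 14.2 to 21.4 CPM in control organoids, against 30.4 to 44.0 CPM in Min mucosa. Phlda3 (-0.72 ± 0.31), Sesn2 (0.51 ± 0.21) and Mdm2 (0.38 ± 0.16) passed narrowly and were each lost in 7 of 15 alternatives, for Mdm2 and Sesn2 also under the scaling of RLE and of DESeq2. The count was 5 without B6 control replicate 1 or C5 control replicate 4. With AZA, Cdkn1a (101 to 136 CPM) and Fas (7.19 to 9.96 CPM) lay within or near the range of the same Min mucosa (Cdkn1a 115 to 235 CPM, Fas 4.18 to 10.5 CPM). Trp53inp1 and Phlda3 lay above it with AZA and not in controls, and Ccng1 and Mdm2 lay above it in controls and with AZA. AZA organoids were not tested against mucosa.

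Tissue and culture differ in their cells. Smooth muscle markers summed to at most 2.97 CPM in control organoids, against 985 CPM or more in the Min mucosa. T cell markers summed to at most 0.740 CPM in control organoids, in which Cd4, Cd8a and Cd2 were at 0, against 21.4 CPM or more in the Min mucosa. Fibroblast markers summed to at most 2.58 CPM in control organoids, against 209 CPM or more in the Min mucosa. Of 8 proliferation markers 7 were higher in control organoids (1622 to 2055 CPM, against 438 to 654 CPM in the Min mucosa). Of 8 enterocyte markers 5 were lower and 1 higher. Their part, and that of the unequal share of Rn45s reads, in the 8 differences was not tested.

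Across the 13 tissue group means the genes with the pattern most like that of Cdkn1a were Enpep (Pearson r = 0.982), Iqgap2 (0.974) and Nuak2 (0.972), where r was taken over log2 CPM. Those most like Trp53 were Mcm7 (r = 0.941), Nol10 (0.936) and Tcf3 (0.926). For Ccng1 they were Vbp1 (r = 0.922), Zfp54 (0.917) and Hivep2 (0.879), and for Mdm2, whose means differ little, E130310I04Rik (0.800), Myt1 (0.791) and Gjc1 (0.755). None of these is a member, and the closest pairs of members were Cdkn1a with Fas (r = 0.862) and Trp53 with Phlda3 (r = 0.821). Phlda3 ran opposite to Cdkn1a (r = -0.865) and to Fas (r = -0.834). The values are descriptions over 13 means of 3 libraries each, which share depth and cell composition within a group.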

How the data were processed

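RNA from tissue and organoids was depleted of ribosomal RNA and sequenced single-end on an Illumina Genome Analyzer IIx, per the labels' protocols. The authors deposited raw read counts per gene, made with BWA and HTSeq on mm10, per the submitters' processing notes; versions, annotation and strand setting are not given in the sources used here. The table has 24062 gene symbols and 5 summary rows, which took 40.7 to 53.9% of reads in tissue and 46.4 to 63.5% in organoids and were left out. Here edgeR 4.0.16 (R 4.3.3, limma 3.58.1) was run on these counts, with TMM scaling, filterByExpr (minimum count 10, minimum total 15), 1 mean per group and the quasi-likelihood F-test. Fits were separate for tissue (39 libraries, 13657 genes) and organoids (8 libraries, 13395 genes), and joint (47 libraries, 15202 genes) for organoids against mucosa. A gene was called when its p, adjusted by Benjamini and Hochberg across the whole fit, was below 0.05, in 26 comparisons. Errors of log2 changes are Wald SEs, intervals cover 95%, and the prior count was 0.125. Alternatives were RLE scaling, DESeq2 1.42.0, no filter, Rn45s left out, each library left out, the replicate number as a block, only the compared groups in the fit and, chosen after seeing the data, leaving out the libraries with over 60% Rn45s. The 10 genes and all lists were chosen with earlier results of these data known. Of the wider list, the text names at most 4 called genes per direction, by size of change, with a group mean of at least 5 CPM; likeness was taken for 4 members with 3 genes each, on log2 CPM with a prior count of 2. Tests were checked on simulated data. No duplicate libraries were found among 43 replicate pairs.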

Additional observations from a re-analysis of the deposited data

How the results depend on the processing

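None of the log2 changes of the 10 genes that were called, in full or under an alternative, changed direction in the alternatives run; Bbc3 was filtered out of some fits of only the compared groups. Directions of the wider list were not compared. Counts of the 10 genes called were the same in every alternative for AZA against control in the mean (6), adenoma against Min mucosa in the mean (6) and Min against wild-type mucosa in the mean (0). Leaving out 1 library gave 3 to 6 calls for AZA in B6 (6 in full), 4 to 5 for AZA in C5 (6), 0 to 1 for the difference of the AZA effect (0), 0 to 1 for C5 against B6 controls (0) and 5 to 9 for control organoids against Min mucosa (8). The AZA effect in B6 fell to 3 without control replicate 1. For adenoma against Min mucosa it gave 1 to 3 in B6xPWD (1), 2 to 3 in C5F1 (3), 0 to 1 in C5 (1) and 2 to 5 in B6 (3). For adenomas against B6 it gave 1 to 2 in B6xPWD (1) and 1 to 3 in C5 (5), and for wild-type mucosa 0 to 1 in B6xPWD (0) and 0 to 1 in C5 (1). DESeq2 called 2 in B6xPWD and 5 in B6 for adenoma against Min mucosa, 2 for B6xPWD against B6 adenoma, 1 for B6xPWD against B6 wild-type mucosa and 1 for C5 against B6 controls. Dropping the filter gave 1 for the difference of the AZA effect and 1 for C5 against B6 controls. With only the compared groups in the fit, the count was 0 for C5 against B6 wild-type mucosa and 0 for B6xPWD against B6 adenoma. Without the libraries with over 60% Rn45s, 1 was called for B6xPWD against B6 wild-type mucosa. The shares of all genes called in the alternatives are not given here, so shifts in these counts do not show a change particular to the 10 genes. The cause of these shifts was not tested, except that leaving out libraries lowers the sample number.

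The replicate numbers are not stated to pair samples. Same-numbered adenoma and Min mucosa deviated together with a correlation of 0.0914 to 0.405, over 0.1 in all 3 pairs of B6xPWD, C5F1 and C5 and in 2 of 3 pairs of B6. AZA and control organoids did so in 0 of 4 pairs. With 2 libraries per group, however, the pairs of a background must give the same correlation (-0.000268 in B6 and 0.000748 in C5), so they are not independent. The calls reported above are without the block. With the replicate number as a block, adenoma against Min mucosa had 6 calls in C5F1, 2 in C5 and 5 in B6, the C5 minus B6 difference of the adenoma effect 1 (Cdkn1a), C5 against B6 wild-type mucosa 0, B6xPWD against B6 adenoma 0 and the difference of the AZA effect 1 (Cdkn1a). No paired analysis was possible because the groups share no replicate numbers for C5 against B6 control organoids, and the same holds for organoids against mucosa, where the numbers belong to other samples. Depth limits Bbc3, Fas and Phlda3, which had few reads in the libraries rich in Rn45s.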
